A study of Mus musculus with 8 samples.

Results

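The germline and meiosis genes described here are 35 mouse genes known mainly for work in germ cells, among the 55335 genes counted in E14 embryonic stem cells (ESCs). They were chosen by gene symbol without a cutoff on any measured value, but with earlier results of these data known. By role, 15 belong to the piRNA pathway and the germ granule, 8 to the meiotic chromosome axis, synapsis and cohesion, 5 are germ cell regulators of RNA and transcription, and 7 are other genes enriched in germ cells. Of the 35, 31 passed the filter on low counts and were tested, 25 had at least 10 counts in every library, and 3 stayed under 10 counts in all libraries (Dpep3, Piwil4 and Tdrd6).

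E14 is an established mouse ESC line. PolyA RNA was sequenced from 4 groups of 2 biological replicates each: a negative control, and cells labelled as carrying an shRNA against Sox2 (Sox2-KD), hnRNPK (hnRNPK-KD) or Cdk9 (Cdk9-KD). The groups shared the cell line and had no other genetic change in the labels, which do not say which shRNA a library received. The study's methods describe ESC medium with LIF and the inhibitors CHIR99021 and PD0325901, and puromycin selection after shRNA infection. Control cells for sequencing are described there as infected with a control shRNA. The study asked how SOX2, a transcription factor of the pluripotent state, and hnRNPK, an RNA-binding protein, act on gene expression in ESCs, and Cdk9 encodes the kinase that releases paused RNA polymerase II.

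piRNAs are small RNAs that PIWI proteins use in the germline to silence transposons, and Tudor domain proteins and RNA helicases assemble the PIWI proteins in germ granules. In meiosis, cohesin complexes and axis proteins fold each chromosome into loops, and the synaptonemal complex then joins homologous chromosomes. In ESCs many of these genes are held low by methylation of CpG-rich promoters and by the repressor complex PRC1.6, which contains the E-box binding proteins MGA and MAX and the factor E2F6, although a subset is readily detected in ESC cultures.

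RefSeq promoter windows (GRCm38.p6, 250 bases before to 50 bases after the start) matched 30 of the 35 genes, the exceptions being Tdrd6, Piwil2, Rnf17, Tex15 and Tex11. Only the first listed window of each gene was used. These windows held a median of 19.5 CpG dinucleotides (range 2 to 48), against a median of 7 over 27025 genes. Other windows of the same gene can differ, as in Tdrd7 (4 CpGs in the window used, 32 in each of the others) and Piwil4 (11 and 0). The E-box CACGTG, which reads the same on both strands, was present in 14 of the 30 windows (46.7%) and in 7.24% of all windows. The E2F6 motif GCGGGA, searched on both strands, was present in 12 (40%) and in 20% of all windows, and the motifs do not overlap in sequence. Among windows with at least 20 CpGs, the E-box was in 11 of 15 (73.3%) of these genes and in 11.8% of 7239 genes, while GCGGGA was in 60% and 49.2%. The letters are a description of the windows, and neither binding nor methylation was measured.

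**Figure D1:**
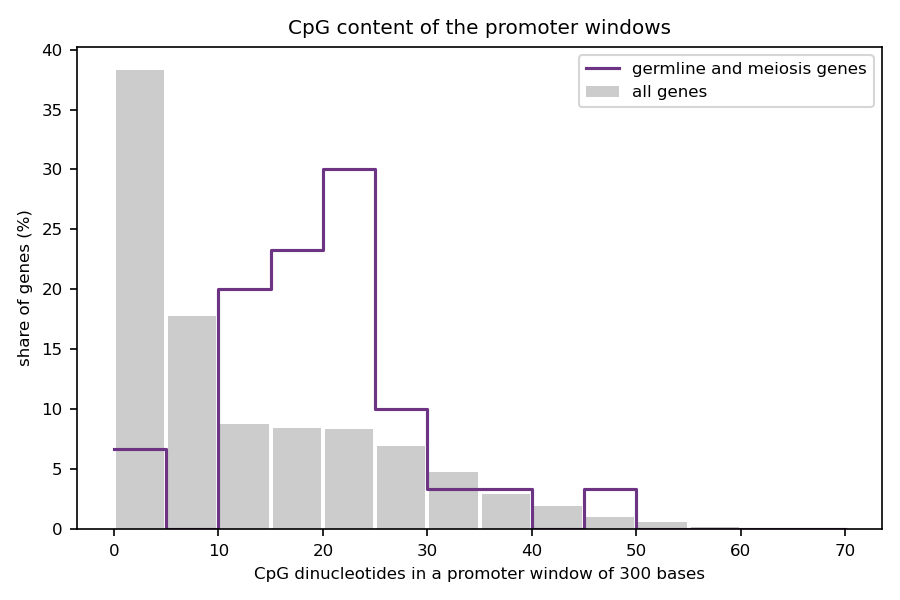
Share of genes (%) by the number of CpG dinucleotides in a promoter window of 300 bases, in steps of 5, for all 27025 genes (grey bars) and for 30 germline and meiosis genes (purple line). Of all genes 38.3% fall in the lowest step and of the germline and meiosis genes 6.67% do, whereas 30% of the latter hold 20 to 24 CpGs.

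Of the promoters printed next, Ddx4 (chr13:112652261-112652560, minus strand), Slc25a31 (chr3:40708621-40708920, plus strand), Tdrd12 (chr7:35537666-35537965, minus strand) and Tex13b (chrX:140813384-140813683, minus strand) belong to the genes that passed the test against control. Hormad1 (chr3:95559427-95559726, plus strand) and Dazl (chr17:50293571-50293870, minus strand) are shown because they were more than 2-fold lower in replicate 2 of both other knockdowns, as described further on. Each runs 5′ to 3′ on the strand of its gene, and capitals mark CACGTG and GCGGGA or its reverse complement TCCCGC.
Ddx4: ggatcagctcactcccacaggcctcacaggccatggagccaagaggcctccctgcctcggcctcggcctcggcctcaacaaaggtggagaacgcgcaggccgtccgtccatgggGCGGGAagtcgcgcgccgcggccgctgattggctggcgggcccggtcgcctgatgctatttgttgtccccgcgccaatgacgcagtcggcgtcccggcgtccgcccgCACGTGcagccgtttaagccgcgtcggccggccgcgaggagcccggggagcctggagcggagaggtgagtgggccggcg
Slc25a31: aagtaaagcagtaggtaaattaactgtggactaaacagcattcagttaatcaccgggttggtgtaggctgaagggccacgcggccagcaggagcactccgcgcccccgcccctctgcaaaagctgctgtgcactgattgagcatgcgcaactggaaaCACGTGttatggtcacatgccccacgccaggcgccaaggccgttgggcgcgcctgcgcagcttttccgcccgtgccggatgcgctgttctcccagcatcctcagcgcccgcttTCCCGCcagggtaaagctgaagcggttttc
Tdrd12: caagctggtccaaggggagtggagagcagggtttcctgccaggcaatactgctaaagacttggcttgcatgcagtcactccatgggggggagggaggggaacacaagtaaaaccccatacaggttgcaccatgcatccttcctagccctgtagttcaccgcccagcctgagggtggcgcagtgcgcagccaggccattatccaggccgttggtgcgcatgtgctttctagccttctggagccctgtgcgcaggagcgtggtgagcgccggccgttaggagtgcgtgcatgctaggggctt
Tex13b: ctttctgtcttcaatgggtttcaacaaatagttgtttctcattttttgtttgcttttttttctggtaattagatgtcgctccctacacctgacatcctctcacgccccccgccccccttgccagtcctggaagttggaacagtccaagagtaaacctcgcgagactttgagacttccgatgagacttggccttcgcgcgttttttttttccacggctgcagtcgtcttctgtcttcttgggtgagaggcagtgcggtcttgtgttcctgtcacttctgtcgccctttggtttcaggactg
Hormad1: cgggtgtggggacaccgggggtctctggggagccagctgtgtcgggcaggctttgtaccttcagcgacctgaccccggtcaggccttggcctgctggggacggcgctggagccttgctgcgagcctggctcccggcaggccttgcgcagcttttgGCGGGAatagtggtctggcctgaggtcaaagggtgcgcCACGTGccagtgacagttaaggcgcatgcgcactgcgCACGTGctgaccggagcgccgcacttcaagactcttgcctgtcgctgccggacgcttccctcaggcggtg
Dazl: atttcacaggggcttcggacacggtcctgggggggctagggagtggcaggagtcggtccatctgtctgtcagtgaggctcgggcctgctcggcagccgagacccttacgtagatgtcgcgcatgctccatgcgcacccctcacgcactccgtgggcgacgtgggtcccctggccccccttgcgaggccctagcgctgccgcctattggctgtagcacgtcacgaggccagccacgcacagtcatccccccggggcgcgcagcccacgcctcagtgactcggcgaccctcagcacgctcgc
Ddx4 and Slc25a31, the pair that rose in Sox2-KD, each held 1 E-box and 1 E2F6 motif, and Hormad1 held 2 E-boxes and 1 E2F6 motif. Both motifs also occurred in Mael, Sycp1, Sycp3 and Stag3, which like Hormad1 were not called in Sox2-KD against control. Whether the motifs go with the changes was not tested. Tdrd12, Tex13b and Dazl held neither in this window, with 11, 13 and 28 CpGs.

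Library totals ranged from 16709201 to 17719366 counts, so depth differed little between groups. Sox2 was at 412 and 530 normalized counts (CPM, counts scaled to library size) in control, 320 and 284 in Sox2-KD, and 479 to 591 in the other 4 libraries. Hnrnpk was at 697 CPM in replicate 1 of the hnRNPK-KD-labelled libraries but at 1144 in replicate 2, against 1094 and 1131 in control. The second library thus does not show the loss its label names, and the group is called the hnRNPK-KD-labelled libraries. Cdk9 was at 73.1 and 53.2 CPM in Cdk9-KD and at 109 to 132 in all other libraries. With the edgeR quasi-likelihood test and Benjamini-Hochberg adjustment over 16504 genes, Sox2 fell in Sox2-KD (log2 fold change, log2FC, of -0.64 ± 0.16 SE, adjusted p = 0.0479), whereas Hnrnpk (-0.27 ± 0.20, adjusted p = 0.808) and Cdk9 (-0.91 ± 0.18, adjusted p = 0.0985) did not pass in their own groups. The 8 ESC markers (Pou5f1, Nanog, Esrrb, Klf4, Zfp42, Tfcp2l1, Sall4 and Tdgf1) summed to 5028 to 6591 CPM, and none was called in a knockdown against control, with at most 1 in each direction at an unadjusted p under 0.05. In these bulk libraries, fewer cells that express a gene and less RNA per cell cannot be told apart.

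Several germline genes were well expressed in these ESCs. Per kilobase of exon, the highest mean levels over all libraries were those of Tex19.1 (42.7 CPM per kb), which limits retrotransposons, Rnf17 (24.9), a RING finger and Tudor domain protein of germ granules, and Fkbp6 (23.4), a co-chaperone of the piRNA pathway. Stk31, a kinase with a Tudor domain (11.8), Rec8, the meiotic cohesin kleisin (11.3), and Tdrd12, a Tudor domain protein with a helicase domain (9.45), followed. In control alone the order was Tex19.1, Rnf17 and Fkbp6, then Hormad1 at 17.6, Tdrd12 at 12.6, Stk31 at 11.4 and Rec8 at 9.31 CPM per kb. The median over the 35 genes in control was 1.42 CPM per kb. Meiotic axis and cohesion genes had a median of 2.73 and piRNA and germ granule genes one of 0.752 CPM per kb in control, so the abundant Rnf17 and Fkbp6 stood far above most of their group.

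At the other end, Tdrd6, a large Tudor domain protein, had at most 2 counts in any library, and Piwil4, the nuclear PIWI protein, and Dpep3, a dipeptidase of germ cells, had at most 9. Piwil4 had 6 and 3 counts in control, 9 and 7 in Sox2-KD, 5 and 0 in the hnRNPK-KD-labelled libraries, and 1 and 0 in Cdk9-KD. A count of 0 allows up to 3 counts, and none of these genes was tested. Asz1, a mitochondria-associated piRNA factor and the fourth untested gene, had 0 and 3 counts in control, 18 and 6 in Sox2-KD, 1 and 0 in the hnRNPK-KD-labelled libraries, and 3 and 0 in Cdk9-KD. Its highest library was a Sox2-KD one, but it stayed below the filter.

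**Figure D2:**
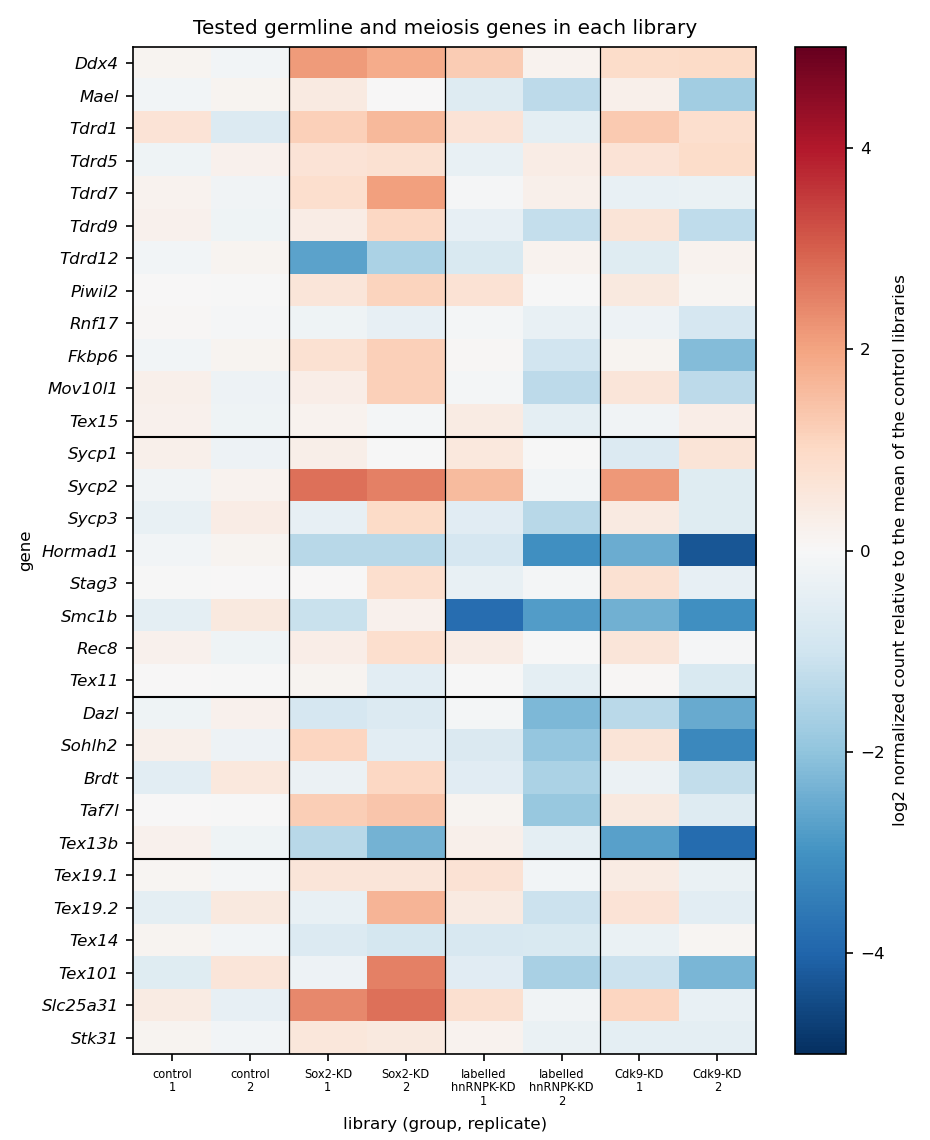
Normalized counts of the 31 tested germline and meiosis genes (rows, grouped by role with black lines) in the 8 libraries (columns), as log2 relative to the mean log2 level of the control libraries, with 0.5 counts added. Red is above and blue below control. Replicate 2 of Cdk9-KD was the lowest library for 13 genes and replicate 2 of Sox2-KD the highest for 14.

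In Sox2-KD against control, Ddx4 and Slc25a31 rose and Tdrd12 fell, so that 3 of the 31 tested genes passed both thresholds (adjusted p under 0.05 and absolute log2FC over 0.6). Over all 16504 genes, 4.32% passed, 2.63% as higher and 1.69% as lower. The median log2FC of the 31 genes was 0.533, with 23 values above 0 and 8 below, while the median of all genes was 0.0214. The median absolute log2FC was 0.789 for the 31 genes and 0.284 for all genes, which were not matched to them by count level. In 14 genes both Sox2-KD libraries lay above both control libraries (28.2% of all genes did), and in 6 both lay below (25.2%).

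Ddx4, the DEAD-box RNA helicase known as Vasa and a defining germ granule protein, was at 3.60 and 2.98 CPM in control and at 14.3 and 11.9 in Sox2-KD. It measured 7.92 and 3.73 CPM in the hnRNPK-KD-labelled libraries and 6.25 and 6.33 in Cdk9-KD. Every knockdown library was above both controls, with Sox2-KD the highest. Its log2FC in Sox2-KD was 1.99 ± 0.35 (SE, edgeR, adjusted p = 0.0132), beside 0.82 ± 0.35 in the hnRNPK-KD-labelled libraries (adjusted p = 0.595) and 0.93 ± 0.35 in Cdk9-KD (adjusted p = 0.398). All 3 comparisons share the control libraries.

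Slc25a31, which encodes a testis form of the mitochondrial ADP/ATP carrier, was among the least abundant tested genes, with 11 and 6 counts in control and 47 and 57 in Sox2-KD. The hnRNPK-KD-labelled libraries had 14 and 7 counts and those of Cdk9-KD 17 and 6. Only the Sox2-KD libraries stood clear of the others. The log2FC was 2.58 ± 0.57 against control (edgeR, adjusted p = 0.0317), 2.23 ± 0.55 against the hnRNPK-KD-labelled libraries (adjusted p = 0.0397) and 2.10 ± 0.55 against Cdk9-KD (adjusted p = 0.0431). The call against Cdk9-KD was lost without the filter on low counts (edgeR, adjusted p = 0.0518) and with DESeq2. Requiring at least 10 counts in every library removed Slc25a31 before testing.

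Tdrd12, which acts in secondary piRNA production, moved the other way. It had 888 and 1036 counts in control and 156 and 320 in Sox2-KD. In the hnRNPK-KD-labelled libraries it had 554 and 1064, and in Cdk9-KD 619 and 1036. Both Sox2-KD libraries lay below all others, and replicate 1 of each other knockdown lay between them and control. The log2FC was -2.03 ± 0.39 against control (edgeR, adjusted p = 0.0191), -1.82 ± 0.39 against the hnRNPK-KD-labelled libraries (adjusted p = 0.0256) and -1.86 ± 0.39 against Cdk9-KD (adjusted p = 0.0176).

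Fits without 1 library leave a lone sample in a group. Calls lost in them do not show whether a result rests on that library. With only control and Sox2-KD libraries in the fit, 7 genes were called, adding Fkbp6 and Sycp2 as higher and Hormad1 and Tex13b as lower. Over the alternatives the log2FC was 1.85 to 2.12 for Ddx4, 2.22 to 3.04 for Slc25a31 and -2.67 to -1.59 for Tdrd12. In each of these genes the Sox2-KD and control libraries did not overlap, so leaving out 1 library could not change the sign.

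**Figure D3:**
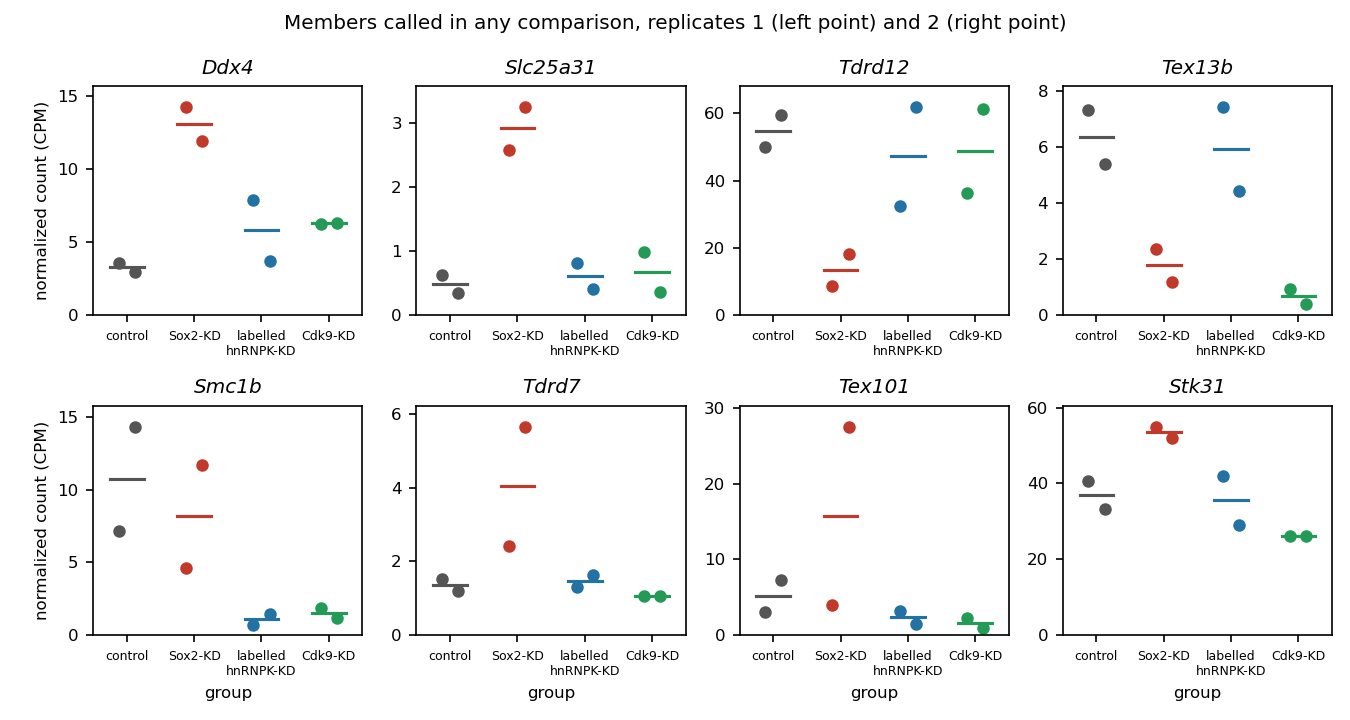
Normalized counts (CPM, axes from 0) of the 8 genes that passed the test in any of the 6 comparisons between groups. Points are libraries, with replicate 1 left and replicate 2 right, and bars are means of 2. Ddx4 and Slc25a31 are highest and Tdrd12 lowest in Sox2-KD, and Tex13b is lowest in Cdk9-KD at 0.935 and 0.414 CPM.

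Other piRNA genes gave no call in Sox2-KD against control, although 10 of the 12 tested piRNA and germ granule genes had a log2FC above 0 (median 0.78). Tdrd7, a Tudor domain protein of germ granules, was at 1.52 and 1.20 CPM in control and at 2.42 and 5.65 in Sox2-KD (log2FC 1.56 ± 0.46, adjusted p = 0.0854). Piwil2, which encodes the PIWI protein MILI, went from 8.50 and 8.13 CPM to 12.6 and 17.9 (0.88 ± 0.30, adjusted p = 0.132). In both genes the groups did not overlap, and the call was not made. Fkbp6 was at 34.3 and 40.6 CPM in control and 62.5 and 84.2 in Sox2-KD, and Mov10l1, the helicase that feeds piRNA precursors to PIWI proteins, was at 3.72 and 2.58 and at 3.90 and 7.19. Rnf17, by contrast, was at 191 and 180 CPM in control and at 162 and 139 in Sox2-KD, and Tex15, a nuclear factor needed for piRNA-directed silencing, lay at 51.8 to 68.5 CPM in these 4 libraries with the groups overlapping. Tdrd1, Tdrd5, Tdrd9 and Mael, further piRNA factors, had at most 75 counts in any library and were not called.

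None of the 8 meiotic chromosome genes was called in Sox2-KD against control, where 2 had an unadjusted p under 0.05 as higher (11.0% of all genes) and 1 as lower (8.25%), and where DESeq2 called none and the likelihood ratio test called Sycp2. Sycp2, an axial element protein, had 3 and 4 counts in control and 27 and 22 in Sox2-KD (log2FC 2.74 ± 0.86, adjusted p = 0.106). Hormad1, which marks unsynapsed axes, was at 27.7 and 33.3 CPM in control and at 11.5 and 11.7 in Sox2-KD (-1.40 ± 0.59, adjusted p = 0.227). Stag3, a meiotic cohesin subunit, was at 30.8 and 32.4 and then at 32.0 and 57.2 CPM, and Rec8 at 31.3 and 23.4 and then at 34.2 and 48.4. Sycp1, the transverse filament of the synaptonemal complex, ranged from 6.08 to 15.4 CPM over all 8 libraries, with its lowest and its highest value both in Cdk9-KD. Tex11, an X-linked recombination factor, and Sycp3, an axial element protein whose exons overlap Chpt1 on the opposite strand by 660 bases, were not called. Without the strand setting, Sycp3 reads cannot be told from those of Chpt1 in that stretch.

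Among the remaining genes, Tex14, needed for the bridges between germ cells, was at 14.1 and 11.5 CPM in control and at 7.80 and 6.85 in Sox2-KD (log2FC -0.80 ± 0.25, adjusted p = 0.106). Tex19.1 was at 70.8 and 61.5 CPM in control and at 99.7 and 99.6 in Sox2-KD (adjusted p = 0.287). Its paralog Tex19.2 had at most 80 counts in any library, and how reads shared by such copies were counted is not stated, so both are uncertain. Brdt, a testis bromodomain protein, and Taf7l, a TFIID paralog on the X chromosome, had at most 97 counts and were not called.

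**Figure D4:**
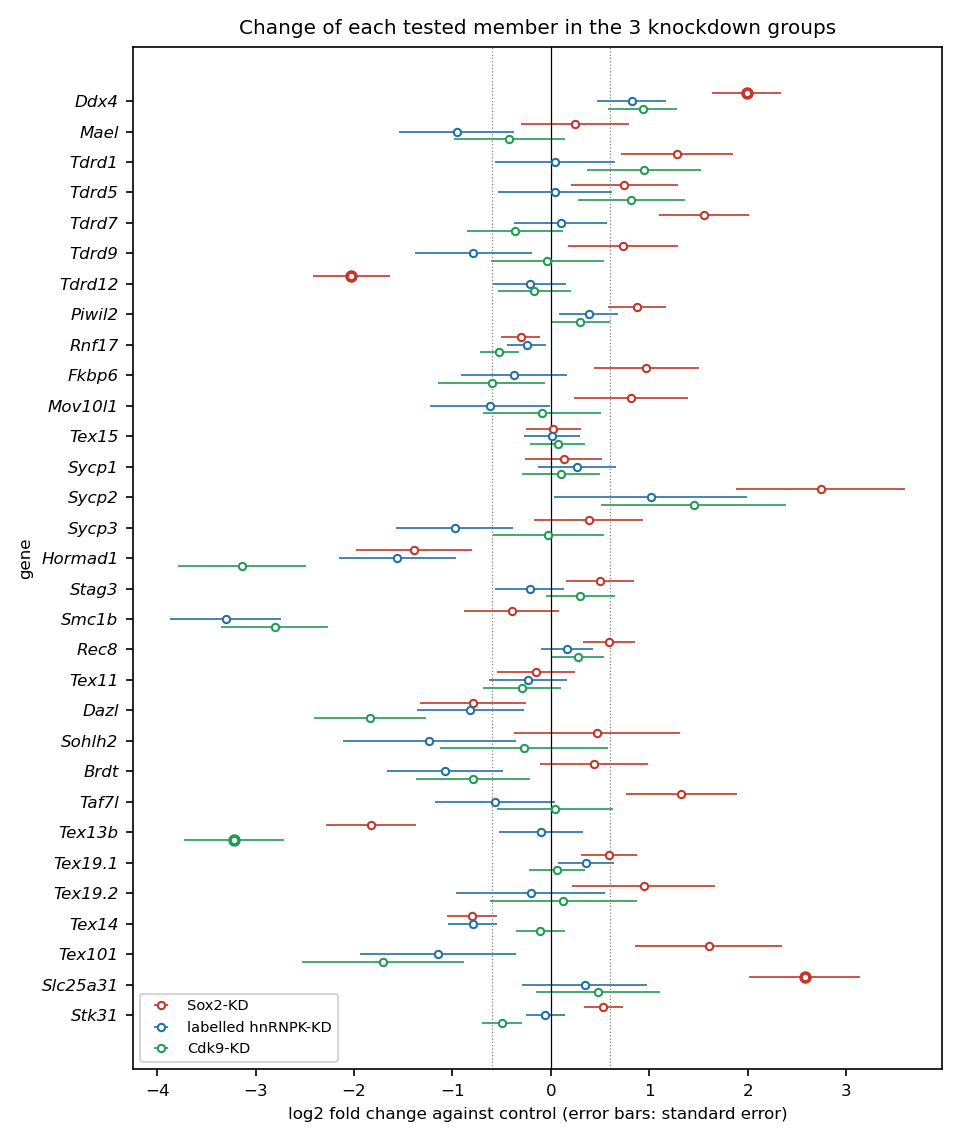
Log2 fold change against control for the 31 tested genes in Sox2-KD (red), the hnRNPK-KD-labelled libraries (blue) and Cdk9-KD (green), with standard errors from the edgeR fit, and dotted lines at ±0.6. Filled points passed the test, which were Ddx4, Slc25a31 and Tdrd12 in Sox2-KD and Tex13b in Cdk9-KD, and the 3 comparisons use the same 2 control libraries.

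In Cdk9-KD against control, Tex13b alone of the 31 genes passed, as lower, against 0.139% of all genes and 0.0848% as lower. At an unadjusted p under 0.05, 1 gene was higher and 6 were lower, while 10.4% of all genes passed in either direction. Tex13b, an X-linked gene of testis with a role that is not well described, was at 7.32 and 5.39 CPM in control, 2.36 and 1.20 in Sox2-KD, 7.45 and 4.42 in the hnRNPK-KD-labelled libraries, and 0.935 and 0.414 in Cdk9-KD. The Cdk9-KD libraries were the lowest, those of Sox2-KD came next, and those labelled hnRNPK-KD spanned the control values. The log2FC was -3.22 ± 0.51 in Cdk9-KD (edgeR, adjusted p = 0.0479) and -1.83 ± 0.46 in Sox2-KD (adjusted p = 0.0506), both close to the threshold. No gene passed in Cdk9-KD with library totals in place of TMM factors. The log2FC of Tex13b lay between -3.95 and -2.76 over all alternatives, which include fits that leave out 1 of these 4 libraries.

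Hormad1 was at 5.37 and 1.54 CPM in Cdk9-KD, below all 6 other libraries in replicate 2 and below all except replicate 2 of the hnRNPK-KD-labelled libraries (3.61) in replicate 1. Its log2FC against control was -3.14 ± 0.65 (edgeR, adjusted p = 0.126), so the large difference did not pass. Dazl, an RNA-binding protein required for germ cell development, was at 19.5 and 26.2 CPM in control and at 8.82 and 3.96 in Cdk9-KD (-1.84 ± 0.56, adjusted p = 0.301). The median log2FC of the 31 genes in Cdk9-KD was -0.0888, with 13 values above 0 and 18 below, and that of all genes was 0.0192. Both libraries lay above control in 4 genes (Ddx4, Piwil2, Tdrd1 and Tdrd5, against 21.2% of all genes) and below it in 8 (against 18.0%).

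No germline or meiosis gene passed in the hnRNPK-KD-labelled libraries against control, where 0.0% of all genes did by the edgeR quasi-likelihood test. At an unadjusted p under 0.05, 1 gene was higher and 3 were lower, beside 8.03% of all genes, and DESeq2 and the edgeR likelihood ratio test each called Smc1b alone. The median log2FC was -0.216, with 11 values above 0 and 20 below, and both libraries lay above control in 1 gene (Ddx4, against 20.4% of all genes) and below it in 10 (against 18.7%). A fit without replicate 2, the library with unreduced Hnrnpk, leaves a lone sample, so calls in it are not given.

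Smc1b, the meiotic form of the cohesin subunit SMC1, had the largest log2FC of the 31 genes there in absolute size. It was at 7.15 and 14.3 CPM in control, 4.62 and 11.7 in Sox2-KD, 0.704 and 1.46 in the hnRNPK-KD-labelled libraries, and 1.87 and 1.18 in Cdk9-KD. The control and Sox2-KD libraries overlapped, and all 4 others lay below them. Against control the log2FC was -3.31 ± 0.57 in the hnRNPK-KD-labelled libraries (edgeR, adjusted p = 0.173) and -2.81 ± 0.55 in Cdk9-KD (adjusted p = 0.0987), while that in Sox2-KD was -0.40 ± 0.48 (adjusted p = 0.709). The direct comparisons passed, with Smc1b higher in Sox2-KD than in the hnRNPK-KD-labelled libraries by 2.91 ± 0.56 (adjusted p = 0.0179) and than in Cdk9-KD by 2.41 ± 0.54 (adjusted p = 0.0239).

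Compared directly, Sox2-KD and the hnRNPK-KD-labelled libraries differed in Slc25a31 and Smc1b, both higher in Sox2-KD, and in Tdrd12, which was lower. That is 3 of 31 genes, where 5.9% of all genes passed, 3.95% as higher and 1.95% as lower. The median log2FC of the 31 genes was 1.15, with 26 values above 0 and 5 below, and that of all genes was -0.0102. With 1 library left out, the log2FC was 1.83 to 2.82 for Slc25a31, 2.09 to 3.53 for Smc1b and -2.46 to -1.27 for Tdrd12.

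Sox2-KD and Cdk9-KD differed in 6 of the 31 genes, with 5 higher in Sox2-KD and Tdrd12 lower, where 7.33% of all genes passed, 4.77% as higher and 2.56% as lower. Beside Slc25a31 and Smc1b these were Stk31, Tdrd7 and Tex101. Stk31 was at 55.0 and 52.0 CPM in Sox2-KD and 26.2 in both Cdk9-KD libraries, with control at 40.7 and 33.2 between them and the hnRNPK-KD-labelled libraries at 42.1 and 28.9. Its log2FC was 1.03 ± 0.20 (edgeR, adjusted p = 0.0124). Tdrd7, at 1.05 and 1.06 CPM in Cdk9-KD and 1.29 and 1.63 in the hnRNPK-KD-labelled libraries, differed by 1.92 ± 0.47 (adjusted p = 0.0332).

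Tex101, which encodes a surface protein of germ cells, was at 4.01 and 27.6 CPM in Sox2-KD and 2.22 and 0.946 in Cdk9-KD. It was at 3.10 and 7.28 CPM in control and at 3.17 and 1.51 in the hnRNPK-KD-labelled libraries. Replicate 2 of Sox2-KD stood far above all others, while replicate 1 lay inside the control range. The log2FC between Sox2-KD and Cdk9-KD was 3.31 ± 0.83 (edgeR, adjusted p = 0.0363), and 1.334 to 4.105 with 1 library left out. In each of the 6 genes both Sox2-KD libraries lay on the same side of both Cdk9-KD libraries. Such fits therefore could not change the direction. Between Cdk9-KD and the hnRNPK-KD-labelled libraries no gene of the 31 passed, nor did any of all genes (0.0%), with 1 higher and 2 lower at an unadjusted p under 0.05 (5.71% of all genes) and 1 (Tex13b, lower) called by DESeq2.

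The germline and meiosis genes varied between replicates of one group more than most genes did, with a median absolute log2 ratio of 0.403 to 1.07 in the 4 groups against 0.238 to 0.319 for all genes. Low counts widen such ratios, only 19 of the 35 genes reached 100 counts in any library, and the sets were not matched by level. In the hnRNPK-KD-labelled libraries, 25 of the 31 genes were lower in replicate 2 than in replicate 1 (80.6%, against 52% of all genes), and 11 of them by more than 2-fold (35.5%, against 4.46%). In Cdk9-KD, 23 were lower in replicate 2 (74.2%, against 50.2%), with 15 by more than 2-fold (48.4%, against 6.72%). The median log2 ratio of replicate 2 to replicate 1 was -0.845 and -0.926 in these groups, and -0.0636 in control. In Sox2-KD it was 0.169, with 7 genes more than 2-fold higher in replicate 2 (22.6%, against 6.06%).

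In 8 genes replicate 2 was more than 2-fold lower in both groups (25.8%, against 1.53% of all genes): Dazl, Hormad1, Mov10l1, Sohlh2, Sycp2, Taf7l, Tex101 and Tex19.2. Ratios of low counts are wide, so the count was repeated on genes that reached 100 counts in some library, which left 5 of 19 (26.3%) against 0.664% of 11297 genes. That library could belong to another group, so the repeat does not remove all low counts. Mov10l1 and Tex101 reached 100 counts only in control or Sox2-KD libraries. Mov10l1 had 49 and 21 counts in the hnRNPK-KD-labelled libraries and 80 and 21 in Cdk9-KD, and Tex101 had 54 and 26, and 38 and 16. Dazl went from 21.2 to 4.71 CPM between the hnRNPK-KD-labelled libraries and from 8.82 to 3.96 in Cdk9-KD, while both controls lay at 19.5 and 26.2. Hormad1 went from 17.1 to 3.61 and from 5.37 to 1.54 CPM. Sohlh2, a transcription factor of early germ cell differentiation, went from 9.44 to 4.07 and from 24.6 to 1.66 CPM, and in Sox2-KD from 33.2 to 10.8, so that in Sox2-KD the same gene was also lower in replicate 2.

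**Figure D5:**
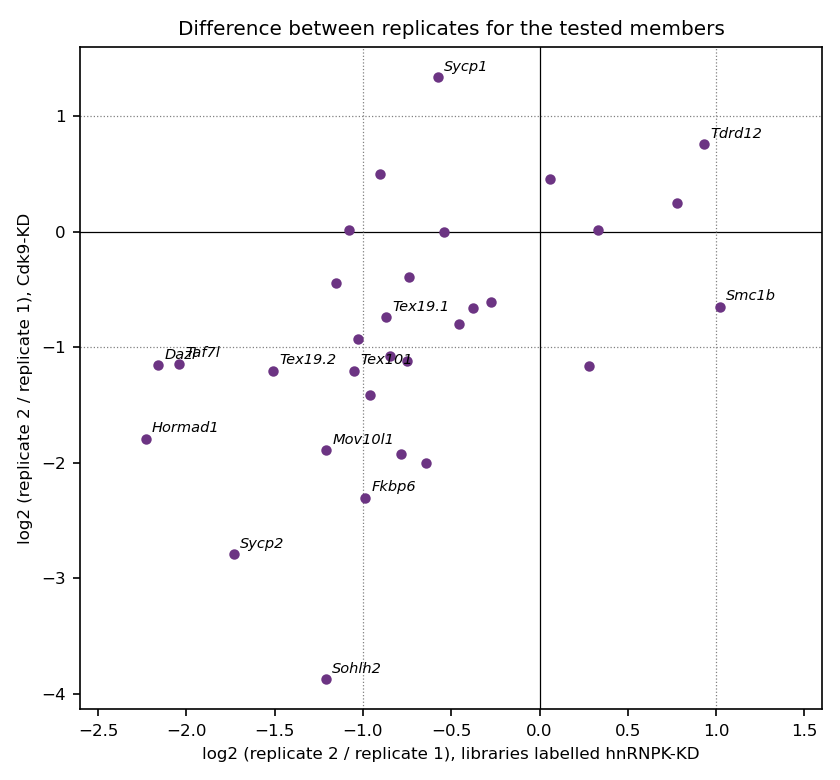
Log2 ratio of replicate 2 to replicate 1 for each of the 31 tested genes, in the hnRNPK-KD-labelled libraries (x axis) and in Cdk9-KD (y axis), with dotted lines at a 2-fold difference. The 8 genes in the lower left corner beyond both lines include Hormad1, Dazl and Sohlh2, and no gene lies beyond both lines in the upper right corner.

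The summed level of the 35 genes showed the same libraries apart. It was 659.8 and 635.4 CPM in control, 666.2 and 724.2 in Sox2-KD, 654.4 and 470.1 in the hnRNPK-KD-labelled libraries, and 598.2 and 440.1 in Cdk9-KD. The 5 germ cell regulators (Dazl, Sohlh2, Brdt, Taf7l and Tex13b) summed to 48.6 and 50.1 CPM in control and to only 14.4 and 8.04 in replicate 2 of those last groups, against 41.5 and 38.5 in replicate 1. The library totals were 17719366 and 17456159 counts in replicate 2 and 17649261 and 16902517 in replicate 1. Hnrnpk was lower in replicate 1 of its group and Cdk9 lower in replicate 2 of its own, and the part of the knockdown level or of depth in this difference was not tested. Further meiosis genes outside the 35 did not show it. They summed to 116.2 and 116.1 CPM in replicates 1 and 2 of the hnRNPK-KD-labelled libraries and to 118.9 and 130.1 in Cdk9-KD. Further piRNA pathway genes summed to 77.6 and 66.0, and to 74.7 and 54.9 CPM.

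Marker lists of other cell types gave a further measured difference for Sox2-KD. Of 6 primitive endoderm markers, Gata6 and Dab2 rose in Sox2-KD, and the list summed to 40.3 and 59.5 CPM there against 1.46 to 3.51 in the other 6 libraries. Most of that sum was Dab2 (35.0 and 54.2 CPM), while Gata4 was at 1.15 and 0.457 CPM in Sox2-KD against 0.957 and 0.974 in control, and Sox7 and Foxa2 had no more than 6 counts. Gata6 had only 4 and 5 counts in control and 49 and 68 in Sox2-KD. Sox17 had 2 and 4 counts in control and 17 and 10 in Sox2-KD, without a call (log2FC 2.10 ± 0.84, edgeR, adjusted p = 0.2). Of 6 trophectoderm markers, Krt18 and Eomes rose in Sox2-KD, and the list summed to 63.5 and 114 CPM there, 32.0 and 52.5 in control, 45.1 and 107 in the hnRNPK-KD-labelled libraries and 60.0 and 65.0 in Cdk9-KD, with Elf5 at no more than 2 counts. In Sox2-KD most of it was Krt18 (41.4 and 82.8 CPM), while Cdx2 was at 6.10 and 6.22 CPM there against 19.8 and 35.1 in control (log2FC -2.15 ± 0.54, edgeR, adjusted p = 0.0521). The part of these marker lists in the changes of Ddx4, Slc25a31 and Tdrd12 was not tested. Sertoli and Leydig cell markers summed to 13.1 to 32.6 CPM, most of it Star, and 0 of 6 were called, with Cyp17a1 at no more than 3 counts and 1 or 2 higher in each knockdown at an unadjusted p under 0.05. The 5 fibroblast markers summed to 2.19 to 6.19 CPM and none was called, with at most 1 (lower) at an unadjusted p under 0.05.

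Other genes of the same pathways showed few calls against control. Of 9 further genes listed under the piRNA pathway 8 were tested. Tdrd3, listed there as a Tudor domain protein although expressed widely beyond the germline, rose in Sox2-KD from 23.9 and 22.1 to 53.9 and 42.6 CPM (log2FC 1.07 ± 0.18, edgeR, adjusted p = 0.0111). Piwil1, Pld6, Gtsf1, Tdrkh, Gpat2, Ddx25 and Exd1 were not called in Sox2-KD against control. Of 21 further meiosis genes 13 were tested and none was called in any knockdown against control, with 0 higher at an unadjusted p under 0.05 in each. At that level 3 were lower in Sox2-KD, 5 in the hnRNPK-KD-labelled libraries and 4 in Cdk9-KD, against 8.25%, 4.55% and 4.93% of all genes. Spo11, which makes the meiotic DNA breaks, and Rad21l, a meiotic cohesin kleisin, had at most 3 counts in any library.

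All 23 repressors of germline genes were tested, with at least 147 counts in every library. In Sox2-KD, Dnmt3l, a cofactor of DNA methylation, rose (log2FC 1.28 ± 0.16, adjusted p = 0.00322), and Uhrf1, which recruits the maintenance methyltransferase (-0.70 ± 0.16, adjusted p = 0.0367), and Wdr5, which is also part of activating complexes (-0.73 ± 0.14, adjusted p = 0.0209), fell. No repressor was called in the hnRNPK-KD-labelled libraries or in Cdk9-KD. Mga, the core of PRC1.6, lay between 308 and 414 CPM over the 8 libraries, and its log2FC against control was between -0.14 and 0.13. Between replicates of the hnRNPK-KD-labelled libraries and of Cdk9-KD it differed by -0.03 and 0.43 on the log2 scale.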

How the data were processed

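PolyA RNA libraries of 8 samples were trimmed with Trimmomatic and aligned by the authors with STAR (version 2.7.9a in the submitters' processing notes) to mm10, GENCODE vM23. The authors deposited raw counts per gene from featureCounts 2.0.1, neither normalized nor pooled. The strand setting and the treatment of shared reads are not stated. Symbols came from GENCODE vM21 (55154 of 55335 matched). Low counts were removed by filterByExpr (at least 10 counts, and 15 in total) and the rest tested with edgeR 4.0.16 in R 4.3.3, with TMM factors, a group term and all 8 libraries in 1 fit (16504 genes, biological coefficient of variation 0.186), and checked on simulated data. DESeq2 1.42.0 was an alternative. CPM values are counts scaled to library size with TMM factors, and levels between genes are CPM per kb of merged exons. Replicate ratios used 0.5 added counts.

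Values in every library are given for each gene called in any of the 6 comparisons. The 6 genes with the highest level per kb, and uncalled genes that reached 100 counts in a library, are named by level. Others were chosen after their values were seen. Genes and lists were chosen with earlier results of these data known. With 2 replicates a group, p-values measure only the spread between these samples. Groups came from the sample titles.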

Additional observations from a re-analysis of the deposited data

How the results depend on the processing

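With 2 libraries a group, leaving out 1 leaves a lone sample assumed to vary like the other groups, and depth limits genes under about 10 counts. Of 363 recomputed log2FC values, 289 kept direction and side of the threshold, 46 lost and 25 gained the call, and 3 changed sign. In Sox2-KD against control, Smc1b ranged from -1.22 to 0.18 with 1 library left out (0.18 without control replicate 2, 0.11 without Sox2-KD replicate 1), and Tex101 from -0.37 (without Sox2-KD replicate 2) to 2.40.

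Because fits that leave out 1 library have a lone sample in a group, the number of genes called is not compared for them. In Cdk9-KD against control the number of genes called was 0 with library totals. It was 2 with only the 4 libraries compared, where Sox2-KD against control gave 7. Requiring at least 10 counts in every library gave 0, but that filter removed Tex13b, with 7 counts in Cdk9-KD replicate 2, before testing. The likelihood ratio test gave 6 in Sox2-KD, 1 in the hnRNPK-KD-labelled libraries and 3 in Cdk9-KD against control, 8 in Sox2-KD against the hnRNPK-KD-labelled libraries, and 1 in Cdk9-KD against these. DESeq2 gave 1 in the hnRNPK-KD-labelled libraries and 3 in Cdk9-KD against control, 5 in Sox2-KD against the hnRNPK-KD-labelled libraries, and 1 in Cdk9-KD against these. Leaving out replicate 2 of Cdk9-KD and of the hnRNPK-KD-labelled libraries together, chosen after seeing the data, gave 7 in Sox2-KD against control. The cause was not tested.

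Replicate numbers are shared between groups, but nothing says they mark a batch, and same-numbered deviations correlated at -0.218 to 0.195. With the replicate number as a block, 4 genes were called in Sox2-KD, 0 in the hnRNPK-KD-labelled libraries and 1 in Cdk9-KD against control, and 4, 5 and 0 in Sox2-KD against the hnRNPK-KD-labelled libraries, Sox2-KD against Cdk9-KD and Cdk9-KD against the hnRNPK-KD-labelled libraries.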

Other observations

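Among regulators of primordial germ cells, which were not part of the comparisons above, 7 of 10 were tested. Kit, the receptor for stem cell factor, was at 229 and 358 CPM in control, 28.8 and 29.3 in Sox2-KD, 193 and 180 in the hnRNPK-KD-labelled libraries, and 168 and 157 in Cdk9-KD. Its log2FC in Sox2-KD was -3.34 ± 0.21 (edgeR, adjusted p = 0.000152), the only call in that list and comparison. Tfap2c, a transcription factor of primordial germ cells and trophoblast, was at 43.4 and 43.0 CPM in control and at 13.1 and 7.81 in Cdk9-KD (log2FC -2.04 ± 0.31, adjusted p = 0.0416), with 28.7 and 32.5 in Sox2-KD and 32.5 and 17.5 in the hnRNPK-KD-labelled libraries. Dppa3, also called Stella, was at 2.08 and 8.14 CPM in control and at 1.99 and 0.873, and 1.11 and 0.414, in the hnRNPK-KD-labelled libraries and Cdk9-KD, with no call. Nanos2, Sohlh1 and Figla had at most 2 counts in any library.

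Eomes, a transcription factor of trophoblast and mesendoderm, was called higher in Cdk9-KD as well as in Sox2-KD. It was at 3.83 and 2.58 CPM in control, 8.96 and 9.25 in Sox2-KD, 8.09 and 7.92 in the hnRNPK-KD-labelled libraries, and 19.4 and 14.3 in Cdk9-KD (log2FC 2.39 ± 0.28, edgeR, adjusted p = 0.0191).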
